A study of Mus musculus with 9 samples.

Results

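RNA-seq of mouse 6DT1 cells carrying the H4 shRNA against Resf1 (shH4) was compared with RNA-seq of 6DT1 cells carrying a scramble hairpin (shControl). The libraries were taken by these labels and made up 6 of the 9 libraries of the series, 3 in each group, and all 5301 genes in the table were described. The other 3 libraries carried the H6 shRNA against Resf1 (shH6) and were used for the shared estimate of spread and for a direct comparison between the hairpins. 6DT1 is a mammary cancer line derived from an MMTV-Myc mouse tumor, in which a mammary-directed viral promoter drives the Myc oncogene, and it is syngeneic to FVB/NJ mice. All groups were therefore Myc-driven tumor cells that had been infected with lentivirus and selected in puromycin, and they differed in the hairpin. The labels gave the genotype of the shControl libraries as wildtype and that of the shH4 libraries as Resf1 sh4 knockdown. The 3 libraries of a group came from dishes seeded in triplicate for each condition, so the p-values measured the spread between dishes, and the transduced line and the hairpin cannot be told apart.

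Resf1 encodes a large nuclear protein that binds the histone H3 lysine 9 methyltransferase SETDB1 and takes part in silencing endogenous retroviruses in embryonic stem cells. A short hairpin RNA is processed to a guide strand that pairs with its target transcript, and the bases near the 5′ end of the guide, the seed, also pair with sites in the 3′ UTRs of other transcripts.

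The H4 sequence and its site in Resf1 are shown because this guide is what the shH4 libraries carried. The site lies on the plus strand at chr6:149327436-149327456 (GRCm38), within exon 3 of a transcript of 6066 bases, in its coding part, and 5 of the 11 annotated Resf1 transcripts hold it. The hairpin is its reverse complement, and capitals mark bases 2 to 8 of the hairpin and the bases that pair with them.
H4 hairpin: tTTCGATTtgtaacataggtc
Resf1 site: gacctatgttacaAATCGAAa
A run of at least 17 of the 21 bases, starting at either end, was found in the transcripts of 0 other genes.

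Resf1 was lower in every shH4 library. The values, in normalized counts (estimated reads divided by a size factor for each library), were 1591, 1553 and 1610 in shControl and 976, 953 and 1016 in shH4. The groups did not overlap, and the mean fell by 38.1%, which is −0.69 on the log2 scale (standard error, SE, 0.043, limma adjusted p = 2.34e-09). Setdb1, the gene of the partner methyltransferase, was at 2092, 2182 and 2128 in shControl and at 2373, 2262 and 2310 in shH4. The difference of 0.12 on a log2 scale had an SE of 0.038 (limma adjusted p = 0.00815), and after scaling by the upper quartile it was 0.06 with a limma adjusted p of 0.161.

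Most of the listed genes differed between the groups, and most of the differences were small. By limma, 5074 of 5301 genes (95.7%) passed an adjusted p of 0.05, of which 2610 (49.2% of the table) were higher in shH4 and 2464 (46.5%) were lower, and the 3 shH4 libraries did not overlap the 3 shControl libraries in 4947 (93.3%). The table itself appeared to be a selection of genes that differ from shControl, made by a rule that was not stated. These percentages are therefore the background against which each gene group below is read, and they give no share of the transcriptome. After scaling by the upper quartile, 2041 were higher and 2575 were lower, so that the larger count changed direction. A group member is called higher or lower below where it passed this threshold. In total 206 genes (3.89%) changed by more than 2-fold, 68 upward and 138 downward. These were mostly genes with few reads. Their median level in shControl was 43.8 normalized counts, against 923 over all listed genes, and when the listed genes were split into 4 equal groups by level, the group with the lowest level held 63 of the 68 and 125 of the 138. The median size of the change was 0.49 on the log2 scale in that group and 0.27, 0.22 and 0.19 in the next groups in order of level. The normalized values summed to between 13.3 and 13.6 M per library over the listed genes, and the median coefficient of variation between dishes was 3.97% in shControl and 4.29% in shH4. The lowest shControl mean was 4.05 among the genes that were higher and 15.03 among those that were lower.

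**Figure D1:**
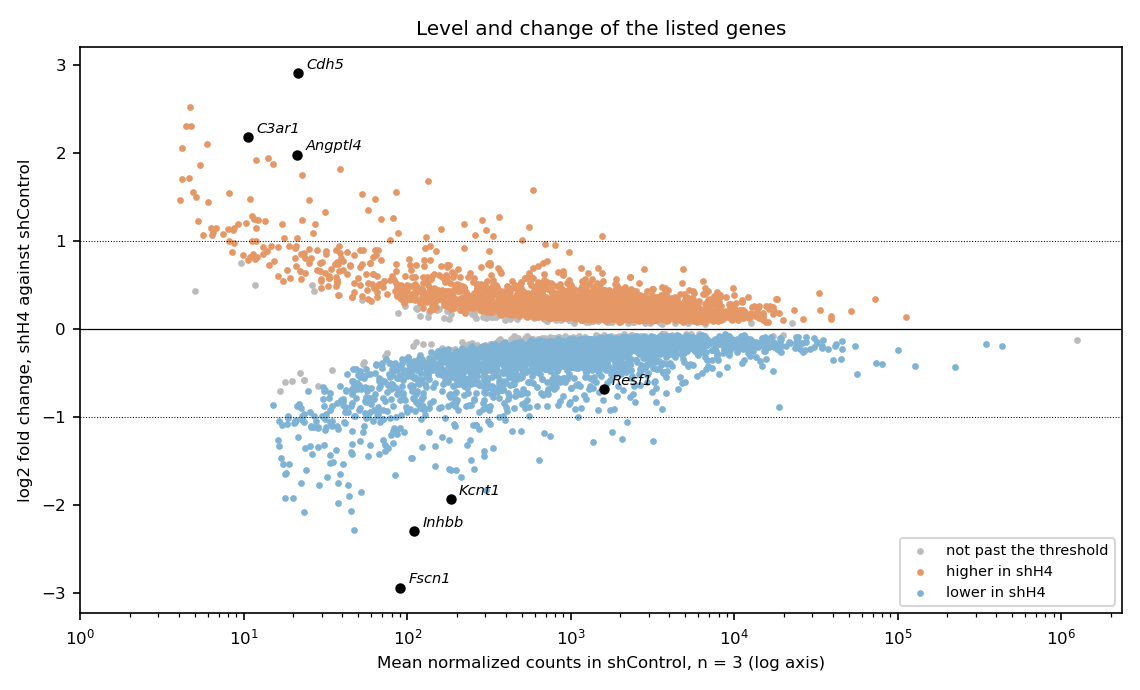
Each point is a listed gene, placed by its mean normalized counts in shControl (log axis, n = 3) and its log2 fold change in shH4 against shControl, with dotted lines at a 2-fold change. Genes with a limma adjusted p-value under 0.05 are orange where higher (2610) and blue where lower (2464), and the changes over 2-fold gather at low levels.

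The genes that changed most were named by size of change among those with a limma adjusted p-value under 0.05, no overlap between the groups and a mean of at least 50 normalized counts in the higher group, conditions that 4632 genes met. The 15 that rose most were led by cell surface and secreted proteins, and the 15 that fell most included an actin-bundling protein, an activin subunit, a plexin, a potassium channel and several lysosomal or endocytic proteins. The highest limma adjusted p among these 30 genes was 3.59e-05 (Mmp1a). Where members of the gene lists below were named for size of change, the same conditions held, so their lack of overlap was required.

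Among the risen genes with adhesion, matrix or protease functions, Cdh5 had the largest change. It encodes VE-cadherin, the adhesion molecule of endothelial junctions. Its values were 24.6, 14.2 and 25.5 normalized counts in shControl and 148, 157 and 184 in shH4, a 7.50-fold rise (log2 fold change 2.91, SE 0.22). Every shH4 library was far above every shControl library. Tnc encodes tenascin C, a matrix glycoprotein of remodelling tissue and tumor stroma, and went from 15.7, 13.04 and 13.3 to 46.3, 67.0 and 57.7 (log2 fold change 1.94, SE 0.21). Serpinb2, the gene of plasminogen activator inhibitor 2, went from 32.8, 41.5 and 42.1 to 149, 129 and 138 (log2 fold change 1.82, SE 0.14). The collagenase gene Mmp1a went from 30.3, 30.8 and 33.2 to 71.9, 79.7 and 90.5 (log2 fold change 1.33, SE 0.21). It is annotated as a polymorphic pseudogene in GENCODE M21 and has a close copy beside it, so reads may have been split between the copies.

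The risen genes also included secreted signals and receptors. Angptl4, a secreted inhibitor of lipoprotein lipase, went from 25.97, 17.8 and 19.9 to 79.8, 87.9 and 89.0 (log2 fold change 1.98, SE 0.17). Cxcl5, a chemokine that attracts neutrophils, went from 73.1, 97.2 and 85.3 to 254, 237 and 257 (log2 fold change 1.55, SE 0.10). Il24, a cytokine of the IL-10 family, went from 58.8, 37.9 and 75.3 to 170, 124 and 134 (log2 fold change 1.34, SE 0.19). In each of these the lowest shH4 library was clear of the highest shControl library. Prl2c3, a proliferin of the prolactin family whose members are nearly identical in sequence, went from 124, 140 and 139 to 530, 428 and 352 (log2 fold change 1.68, SE 0.12), and the share of its reads that belongs to its copies is uncertain. The receptor genes were C3ar1, the receptor for the complement fragment C3a, with 6.83, 11.9 and 13.3 in shControl and 58.1, 53.9 and 40.1 in shH4 (log2 fold change 2.18, SE 0.26), and Adora1, the adenosine A1 receptor, with 21.9, 26.1 and 19.9 in shControl and 72.9, 73.6 and 87.0 in shH4 (log2 fold change 1.74, SE 0.16).

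The remaining risen genes acted in the nucleus, in membrane traffic or had no described role used here. Hist1h1a encodes a linker histone of the H1 class. It went from 592, 563 and 615 to 1763, 1819 and 1677 normalized counts, a 2.97-fold rise (log2 fold change 1.57, SE 0.054, limma adjusted p = 3.01e-12). Eya1, a transcriptional coactivator and phosphatase of organ development, went from 48.5, 52.2 and 57.6 to 160, 156 and 147 (log2 fold change 1.53, SE 0.15). Dennd2a, an exchange factor for Rab GTPases, rose by 1.47 on the log2 scale. The membrane protein gene Tmem132c rose by 1.87, and the noncoding transcript Gm16201 by 1.46.

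**Figure D2:**
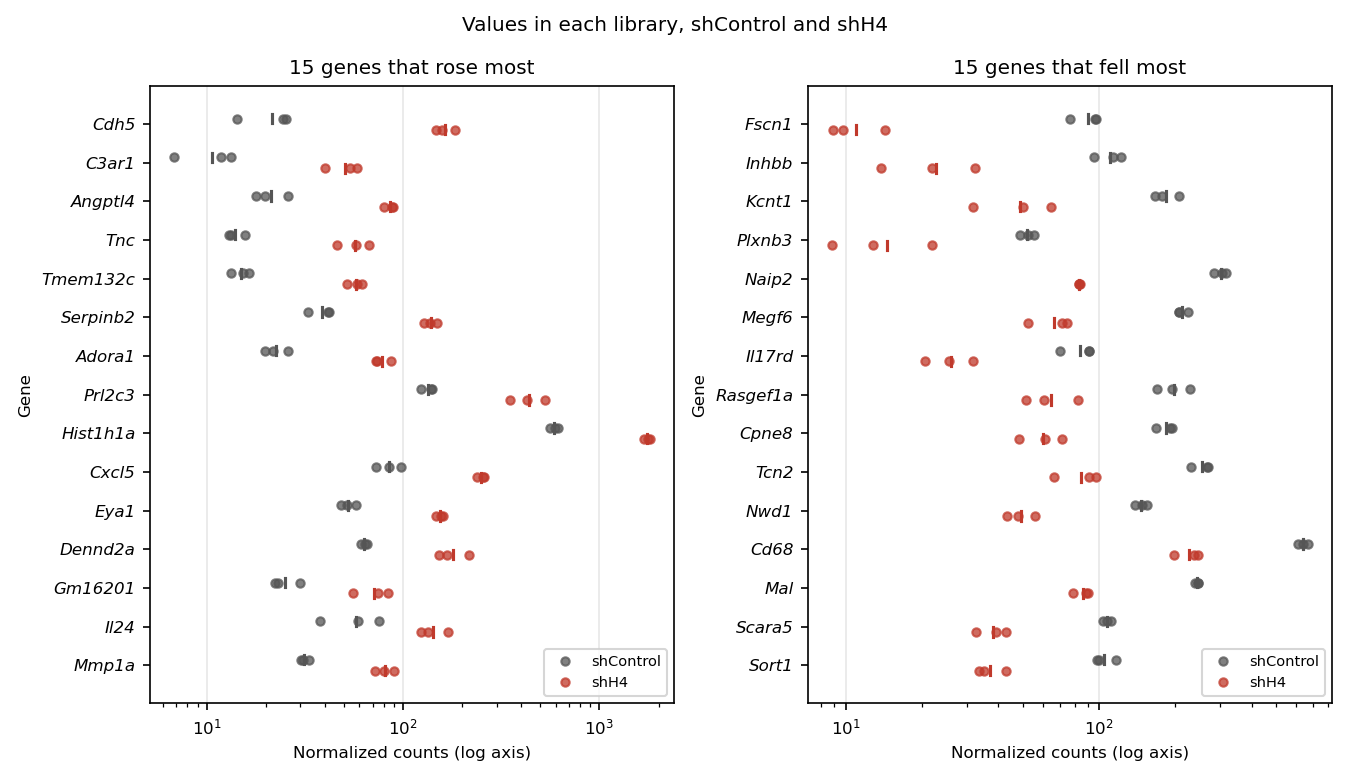
Normalized counts (log axis) of the 15 most risen and the 15 most fallen genes, with a point for each library (3 shControl in grey, 3 shH4 in red) and a bar at each group mean. The groups do not overlap in any of the 30 genes, which the rule required, and Cdh5 rises 7.50-fold while Fscn1 falls 7.70-fold.

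Among the fallen genes, Fscn1 had the largest change. It encodes fascin, which bundles actin filaments in filopodia. Its values were 76.5, 97.2 and 96.4 in shControl and 8.87, 14.3 and 9.78 in shH4, a 7.70-fold fall (log2 fold change −2.94, SE 0.21). Inhbb encodes the beta B subunit of activins and inhibins, which signal through TGF-beta family receptors. It went from 122, 114 and 95.3 to 13.8, 21.98 and 32.3 (log2 fold change −2.30, SE 0.27). Plxnb3, a semaphorin receptor of the plexin family, went from 55.3, 52.2 and 48.7 to 12.8, 21.98 and 8.80 (log2 fold change −1.86, SE 0.28). In both of these the highest shH4 library was well below the lowest shControl library. Kcnt1, a sodium-activated potassium channel, went from 167, 207 and 177 to 50.3, 31.9 and 64.5 (log2 fold change −1.94, SE 0.19).

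Several of the fallen genes act in endocytosis, the lysosome or nutrient uptake. Cd68, a heavily glycosylated lysosomal membrane protein that is abundant in macrophages, went from 668, 608 and 638 to 197, 245 and 237 (log2 fold change −1.50, SE 0.094). Tcn2 encodes transcobalamin, the carrier that delivers vitamin B12 to cells, and went from 269, 230 and 267 to 66.0, 96.7 and 91.0 (log2 fold change −1.60, SE 0.14). Sort1, the sorting receptor sortilin, went from 97.7, 116 and 99.7 to 33.5, 42.9 and 35.2 (log2 fold change −1.47, SE 0.17). These 3 genes were lower in all shH4 libraries by a similar amount. Scara5, a scavenger receptor that binds ferritin, fell by 1.48 on the log2 scale, and Mal, a proteolipid of membrane rafts and apical transport, fell by 1.49.

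The other fallen genes were signalling and innate sensing genes. Naip2, a cytosolic sensor of bacterial secretion system proteins, went from 304, 316 and 284 to 83.7, 83.5 and 83.1 (log2 fold change −1.84, SE 0.14), with shH4 libraries that were almost identical. Other Naip genes are close copies, so its reads may have been shared with them. Il17rd, which restrains signalling by fibroblast growth factor receptors, went from 90.9, 91.3 and 69.8 to 25.6, 31.9 and 20.5 (log2 fold change −1.66, SE 0.22). Rasgef1a, an exchange factor for Ras family GTPases, fell by 1.61 on the log2 scale, and so did Cpne8, a calcium-dependent membrane-binding copine. Megf6, a protein with EGF-like repeats, fell by 1.68, and Nwd1, a protein with NACHT and WD domains, by 1.56.

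Pairing of the H4 seed with other transcripts was described next. Of 4635 listed genes with an annotated 3′ UTR, 89 held a match to bases 2 to 8 of the hairpin. Of these 89 genes, 35 were lower and 52 were higher in shH4, with a median log2 fold change of 0.13, and 1 fell by more than 2-fold, Adcy10, a soluble adenylyl cyclase (40.3, 33.2 and 36.6 normalized counts in shControl and 15.8, 7.69 and 19.6 in shH4, log2 fold change −1.38). The 4546 genes without a site had 2064 lower and 2295 higher, with a median of 0.11. Of the 15 genes that fell most, 0 held a site. These counts are over genes that appeared to be selected for a difference from shControl.

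Most listed genes of DNA replication and mitosis were higher in shH4, with medians under 1.5-fold. Of 55 DNA replication genes in the table, 52 were higher and 1 was lower past the threshold, with a median log2 fold change of 0.27, beside 0.10 over all listed genes. Their median was 0.30, 0.27 and 0.25 above the shControl mean in the shH4 libraries, and within 0.01 of it in the shControl libraries. After scaling by the upper quartile, 43 were higher and 2 were lower, with a median of 0.21. Dna2, a nuclease and helicase that processes Okazaki fragments, went from 343, 378 and 357 normalized counts to 579, 550 and 606 (log2 fold change 0.68). Ccne2, cyclin E2 of the entry into S phase, rose by 0.61, and Cdc25a, the phosphatase that activates cyclin-dependent kinases at that step, by 0.51. The gene that fell before this rescaling was Pold4, the smallest subunit of DNA polymerase delta, from 1405, 1250 and 1328 to 934, 1070 and 970 (log2 fold change −0.42).

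Of 51 mitosis and spindle genes, 47 were higher and 0 were lower, with a median of 0.16. After scaling by the upper quartile the count was 28 higher and 0 lower, with a median of 0.10. Foxm1, the transcription factor of the G2 and M programme, went from 1476, 1701 and 1665 to 2120, 2220 and 2200 (log2 fold change 0.44, SE 0.070). Plk1, the mitotic kinase, went from 1551, 1687 and 1594 to 1953, 2056 and 1971 (log2 fold change 0.31). Both genes were higher in each shH4 library than in any shControl library, which the rule required. The spindle checkpoint gene Mad2l1 rose by 0.33 and the centromere protein gene Cenpi by 0.34. Of 58 histone genes, 55 were higher and 0 were lower, with a median of 0.26. After Hist1h1a, the largest changes were in Hist1h3a (log2 fold change 0.69), Hist2h2ac (0.59) and Hist1h2ai (0.57). Histone genes are near-identical copies, so values of single histone genes are uncertain.

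Promoters of these genes were searched in a window of 300 bases, 250 before and 50 after each gene start, in the RefSeq sequences of GRCm38.p6. The motifs were chosen after the values were seen, both strands were searched, and a match is a description and not a site of binding. An E2F-type motif, TTTCCCGC or TTTGGCGC, was in 15 of 47 DNA replication promoters (31.9%) and in 1.80% of the promoters of 27025 genes. Over 3765 listed genes with a promoter sequence, 162 (4.30%) held it, of which 117 were higher and 32 lower. Their median log2 fold change was 0.20, and that of the listed genes without it was 0.08. The CHR motif TTTGAA of cell cycle genes was in 29 of 44 mitosis promoters (65.9%) and in 20.2% of all promoters. Its 532 listed carriers, 14.1% of the listed genes with a promoter sequence, had a median of 0.12, against 0.10 without it. Windows of 40 bases are shown for a replication gene named above, for genes of origin licensing and for mitotic genes, with the motif in capitals.
Cdc25a, chr9:109875496-109875535, plus strand: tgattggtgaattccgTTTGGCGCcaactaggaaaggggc
Cdc6, chr11:98907997-98908036, plus strand: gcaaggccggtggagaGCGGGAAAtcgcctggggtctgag
Mcm5, chr8:75109344-75109383, plus strand: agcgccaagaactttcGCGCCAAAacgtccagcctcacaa
Plk1, chr7:122159445-122159484, plus strand: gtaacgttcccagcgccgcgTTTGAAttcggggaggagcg
Kif23, chr9:61946775-61946814, minus strand: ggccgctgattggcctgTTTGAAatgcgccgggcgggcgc

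Genes that build ribosomes and genes of the ribosome itself differed in direction. Of 66 genes of ribosome biogenesis and of RNA polymerases I and III, 56 were higher and 8 were lower, with a median of 0.22. After scaling by the upper quartile the count was 45 higher and 10 lower, with a median of 0.16. Rrp12, a factor of ribosomal subunit maturation and export, went from 549, 588 and 527 to 902, 915 and 763 (log2 fold change 0.63), and the helicase gene Ddx31 rose by 0.50. Of 60 cytosolic ribosomal protein genes, 56 were lower and 3 were higher, with a median of −0.16. With the same rescaling, 57 were lower and 1 was higher, with a median of −0.23. Rpl22 went from 8359, 7830 and 7847 to 5618, 5542 and 5680 (log2 fold change −0.51, SE 0.038, limma adjusted p = 1.72e-08). Its paralog Rpl22l1 went the other way, from 1085, 1150 and 1119 to 1565, 1494 and 1501 (log2 fold change 0.44, SE 0.045, limma adjusted p = 4.40e-07). The shH4 libraries were separate from the shControl libraries in both genes, which the rule required. Rpl10 (0.16) and Rpl12 (0.10) were the others that rose. Both calls were lost after scaling by the upper quartile (limma adjusted p 0.0691 and 0.274). That of Rpl12 was also lost without shControl replicate 1 or shH4 replicate 2 (limma adjusted p 0.0698 and 0.0824). Rplp2, of the ribosomal stalk, fell by 0.27 and Rpl36 by 0.26. Ribosomal protein genes have many processed pseudogenes, and reads can be shared with them. In the biogenesis list, Polr3gl, the alternative subunit of RNA polymerase III, went from 397, 373 and 434 to 219, 220 and 206 (log2 fold change −0.90), and the nucleolar protein gene Noc2l fell by 0.44. Translation factors and tRNA synthetases were mixed, with 13 higher and 20 lower of 33 and a median of −0.10, from Sars, the seryl-tRNA synthetase (−0.42), to Eif4ebp2, a repressor of cap-dependent translation (0.48).

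**Figure D3:**
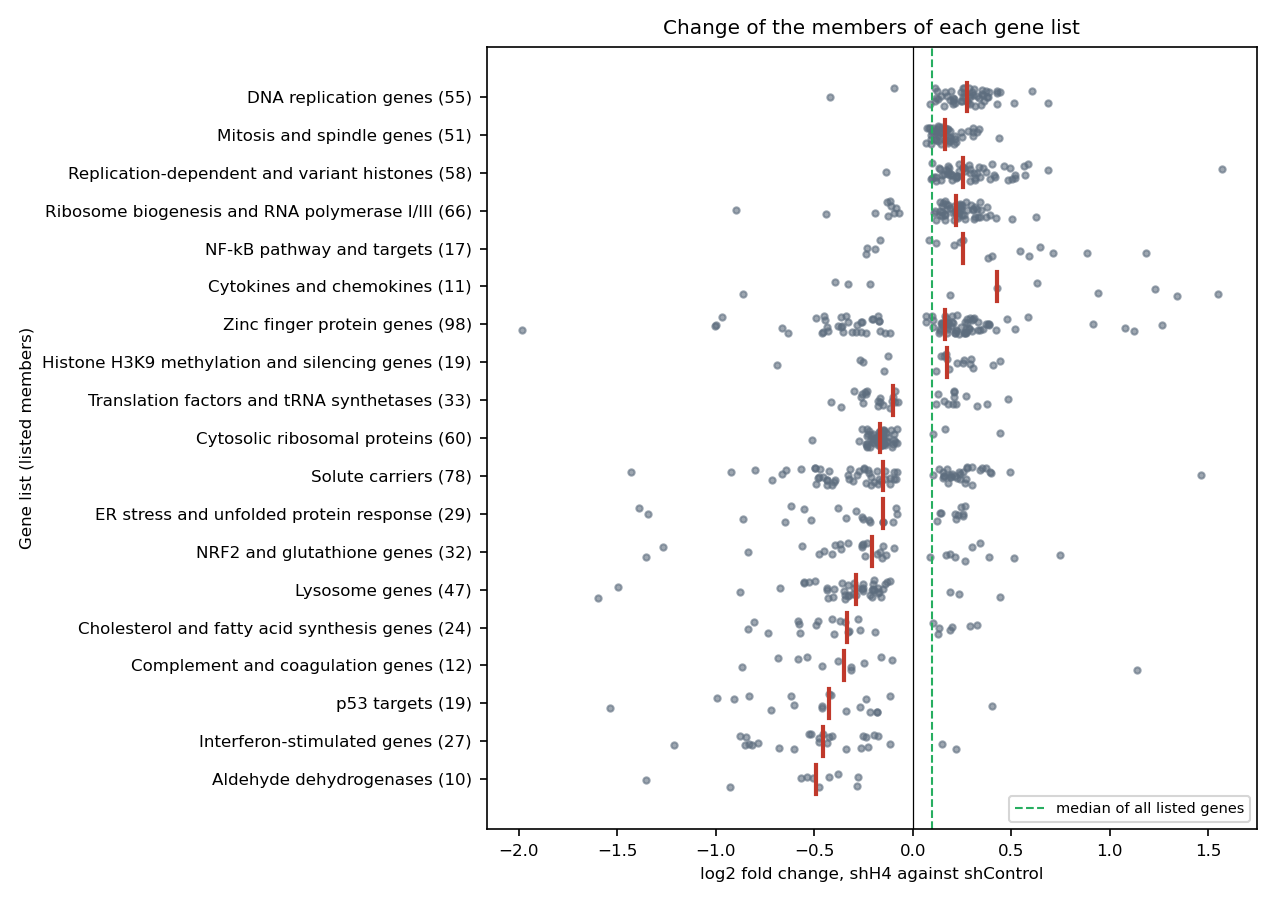
Log2 fold change in shH4 against shControl of each listed member (points, with random vertical offset) of 19 gene lists and families, with the list median in red and the median of all 5301 genes as a dashed line at 0.10. DNA replication genes (median 0.27) and mitosis genes (0.16) lie right of 0, and interferon-stimulated genes (−0.46) and aldehyde dehydrogenases (−0.49) lie left of it.

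The interferon-stimulated genes in the table, 27 of a list of 60, were mostly lower in shH4. Interferon-stimulated genes encode antiviral effectors and are switched on by interferon signalling through STAT and IRF factors. Of the 27, 25 were lower and 2 were higher, with a median log2 fold change of −0.46. The list median was −0.51, −0.45 and −0.43 in the shH4 libraries relative to the shControl mean. Rsad2, the antiviral protein viperin, went from 71.1, 61.6 and 104 to 26.6, 28.6 and 46.0 (log2 fold change −1.21, SE 0.23, limma adjusted p = 0.000175). Genes of the oligoadenylate synthetase family, whose enzymes respond to double-stranded RNA and activate RNase L, were lower as well. Oas3 went from 1020, 996 and 946 to 534, 599 and 533 (log2 fold change −0.83, SE 0.060). Oas1a went from 275, 297 and 293 to 143, 177 and 162 (log2 fold change −0.84), and Oasl1 from 236, 211 and 241 to 112, 141 and 121 (log2 fold change −0.88). The groups did not overlap in any of these genes, which the rule required, and Oas1a has close copies with which it may share reads. Parp12 went the other way, from 871, 903 and 907 to 1058, 1054 and 1012 (log2 fold change 0.22), and the other higher gene was Irf1, a transcription factor of the response, at 0.15. The Irf1 call was lost after scaling by the upper quartile or without shControl replicate 1 (limma adjusted p 0.098 and 0.081).

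The interferon-stimulated response element was searched as GAAA, any 2 bases and GAAA in the same promoter windows. It was in 10 of 23 promoters of the interferon-stimulated genes (43.5%) and in 3.99% of all promoters. Over the listed genes, 148 (3.93%) held it, of which 59 were higher and 82 lower. Their median log2 fold change was −0.14, against 0.11 for genes without it. Windows are shown for 3 of the genes just described, with a match in capitals. In the Oas1a window a further match, left in lower case past the capitals, overlaps the marked one.
Rsad2, chr12:26456548-26456587, minus strand: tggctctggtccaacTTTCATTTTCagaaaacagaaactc
Oas1a, chr5:120907521-120907560, minus strand: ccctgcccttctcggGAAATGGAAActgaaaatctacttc
Oas3, chr5:120777710-120777749, minus strand: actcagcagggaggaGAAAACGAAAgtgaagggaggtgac

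Other immune groups had fewer members in the table. Of 13 genes of MHC class I and antigen presentation, 7 were lower and 5 were higher. The lowest member, at −1.43, did not meet the naming conditions. The classical class I gene H2-D1 went from 17650, 16584 and 17726 to 12110, 12994 and 12230 (log2 fold change −0.48), and H2-T23, a nonclassical class I gene, fell by 0.61. Erap1, the peptidase that trims class I peptides, rose by 0.34, and the others that rose were Tapbpl (0.38), Psmb10 (0.27), Pdia3 (0.14) and Calr (0.12), genes of peptide editing, the immunoproteasome and chaperones. The Calr call was lost after scaling by the upper quartile (limma adjusted p = 0.119). Class I heavy chain genes are similar in sequence, so reads can be shared among them. Of 12 complement and coagulation genes, 10 were lower and 1 was higher, with a median of −0.35. Pros1, protein S of the anticoagulant pathway, went from 1266, 1240 and 1349 to 807, 781 and 807 (log2 fold change −0.69), and Clu, the extracellular chaperone clusterin, fell by 0.54. The gene that rose was Cfp, properdin, at a low level of 9.57, 9.48 and 16.6 in shControl and 18.7, 30.8 and 32.3 in shH4 (log2 fold change 1.14). Of 10 genes on the inflammasome and pyroptosis list, 8 were lower and 2 were higher, with a median of −0.29. The lower ones included Naip2 (−1.84), Ifi205 (−1.33) and Il18 (−0.33). The higher ones were DNA-sensing genes that the list also carries. Cgas, the cytosolic DNA sensor, went from 314, 303 and 301 to 423, 419 and 422 (log2 fold change 0.46). Tmem173, the adaptor STING downstream of it, rose by 0.16.

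Cytokine genes and genes of the NF-kB pathway were described next. NF-kB is held in the cytoplasm by inhibitors that its own activity induces. Of 17 NF-kB pathway and target genes, 12 (70.6%) were higher and 4 were lower, with a median of 0.25. Of 11 cytokine and chemokine genes, 7 (63.6%) were higher and 3 were lower, with a median of 0.43. The share of higher genes over the whole table was 49.2%. The inhibitor gene Nfkbia went from 794, 843 and 847 to 1316, 1351 and 1227 (log2 fold change 0.65, SE 0.049), and the inhibitor gene Nfkbie from 26.6, 35.6 and 19.9 to 72.9, 58.2 and 55.7 (log2 fold change 1.18, SE 0.19). Vcam1, an adhesion molecule for leukocytes, went from 149, 148 and 151 to 292, 255 and 284 (log2 fold change 0.88, SE 0.094). All of these were higher in every shH4 library, which the rule required. Traf3, which restrains the noncanonical pathway, rose by 0.71. Besides Cxcl5 and Il24, the neutrophil chemokine Cxcl1 went from 282, 279 and 299 to 681, 698 and 643 (log2 fold change 1.23, SE 0.061), and Csf3, the granulocyte colony-stimulating factor, from 34.8, 43.9 and 35.4 to 76.9, 69.2 and 74.3 (log2 fold change 0.94, SE 0.15). Tslp, an epithelial cytokine, went from 61.5, 54.5 and 64.2 to 32.5, 32.97 and 32.3 (log2 fold change −0.86), and Ptgs2, the inducible cyclooxygenase, fell by 0.24. The others that fell were Lif (−0.40) and Il18 (−0.33) among the cytokines, and Ikbke (−0.23), Irak2 (−0.19) and Cd14 (−0.17) on the NF-kB list. The call of Cd14 was lost without shControl replicate 2 (limma adjusted p = 0.0525).

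The p53 targets in the table, 19 of a list of 36, were mostly lower in shH4, and the lists of other stress responses held more lower than higher genes. Of the 19 genes, 17 were lower and 1 was higher, with a median of −0.43. Cdkn1a, the cyclin-dependent kinase inhibitor p21, went from 1416, 1543 and 1525 to 908, 917 and 899 (log2 fold change −0.72, SE 0.052, limma adjusted p = 1.24e-08). Trp53inp1, a p53-induced nuclear protein, went from 2659, 2366 and 2369 to 1327, 1328 and 1504 (log2 fold change −0.83, SE 0.058). Eda2r, a receptor of the TNF family, fell by 0.99 and the antiproliferative gene Btg2 by 0.91. The lowest member of the list, at −1.54, did not meet the naming conditions. The exception was Trp53, the gene of p53 itself, which is carried on this list and went from 1855, 2281 and 1937 to 2763, 2711 and 2520 (log2 fold change 0.40, SE 0.067).

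Of 29 genes of ER stress and the unfolded protein response, 18 were lower and 10 were higher, with a median of −0.15. The largest changes were in genes downstream of the factor ATF4. Chac1, an enzyme that degrades glutathione, went from 279, 277 and 329 to 116, 106 and 113 (log2 fold change −1.39, SE 0.10). Atf3, a stress-induced transcription factor, went from 127, 122 and 117 to 49.3, 51.7 and 42.1 (log2 fold change −1.34, SE 0.20). Trib3, a pseudokinase, fell by 0.86 and Ddit3, the factor CHOP, by 0.65, while the ER chaperone gene Hyou1 rose by 0.27. Of 22 glycolysis and hypoxia genes, 14 were lower and 7 were higher. Ddit4, an inhibitor of mTORC1, went from 1367, 1283 and 1447 to 531, 564 and 579 (log2 fold change −1.29, SE 0.060, limma adjusted p = 1.08e-10). Ndrg1, a gene induced by hypoxia, went from 1841, 1763 and 1866 to 952, 994 and 958 (log2 fold change −0.91, SE 0.050). Both genes were lower in all shH4 libraries, which the rule required. Aldoc, an aldolase, fell by 1.17 and Car12, a membrane carbonic anhydrase, by 0.89, while Egln1, the oxygen sensor that marks HIF-1 alpha for degradation, rose by 0.36.

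The lists of lysosomal, lipid synthesis and detoxification genes held more lower than higher members. Of 47 lysosome genes in the table, from a list of 71, 43 were lower and 3 were higher, with a median of −0.29. The list median was −0.30, −0.27 and −0.28 in the shH4 libraries. After Tcn2 and Cd68, Acp5, an acid phosphatase, went from 154, 196 and 183 to 86.7, 111 and 91.0 (log2 fold change −0.88), and Lgmn, the protease legumain, from 980, 1027 and 1012 to 551, 722 and 633 (log2 fold change −0.67). Atp6v0c, a proton channel subunit of the vacuolar ATPase, went the other way, from 1380, 1593 and 1473 to 1999, 2064 and 1983 (log2 fold change 0.45), and the hydrolase gene Gusb rose by 0.24. The E-box CACGTG, a motif that TFEB family factors and MYC bind, was in 14 of 36 lysosome promoters (38.9%), in 13 of 55 ribosome biogenesis promoters (23.6%) and in 8.09% of all promoters. The 450 listed genes with it had 225 higher and 210 lower and a median of 0.11, close to the 0.10 of genes without it. The E-box, in capitals, is shown for Lgmn and for other lysosomal enzymes.
Lgmn, chr12:102439119-102439158, minus strand: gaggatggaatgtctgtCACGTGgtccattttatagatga
Ctsd, chr7:142388038-142388077, minus strand: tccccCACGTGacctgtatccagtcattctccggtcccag
Naglu, chr11:101070004-101070043, plus strand: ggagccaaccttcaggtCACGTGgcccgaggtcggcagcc

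Of 24 cholesterol and fatty acid synthesis genes in the table, from a list of 47, 17 were lower and 6 were higher, with a median of −0.33. Acss2, which makes acetyl-CoA from acetate, went from 271, 266 and 232 to 135, 153 and 151 (log2 fold change −0.81). Tm7sf2, a sterol reductase, fell by 0.84, the phosphatidate phosphatase gene Lpin1 by 0.74 and Mvd of the mevalonate pathway by 0.58, while Fasn, fatty acid synthase, went from 6140, 7428 and 7183 to 8279, 8986 and 8699 (log2 fold change 0.33). Of 32 NRF2 and glutathione genes in the table, from a list of 58, 21 were lower and 9 were higher, with a median of −0.21. Aldh3a1, an aldehyde dehydrogenase, went from 342, 351 and 302 to 117, 146 and 125 (log2 fold change −1.35, SE 0.098). The glutathione transferase gene Gstt1 went from 254, 242 and 228 to 80.8, 121 and 101 (log2 fold change −1.27), and Ephx1, an epoxide hydrolase, from 3355, 3226 and 3357 to 1694, 1856 and 2025 (log2 fold change −0.84). Gclm, a subunit of the rate-limiting enzyme of glutathione synthesis, went the other way, from 677, 698 and 725 to 1050, 1012 and 942 (log2 fold change 0.52). All 10 aldehyde dehydrogenase genes in the table were lower, with a median of −0.49. Aldh3b3 fell by 0.93 and Aldh3b1 by 0.56. The call of Aldh1l2 (log2 fold change −0.53, limma adjusted p = 0.0411) was lost under other settings.

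**Figure D4:**
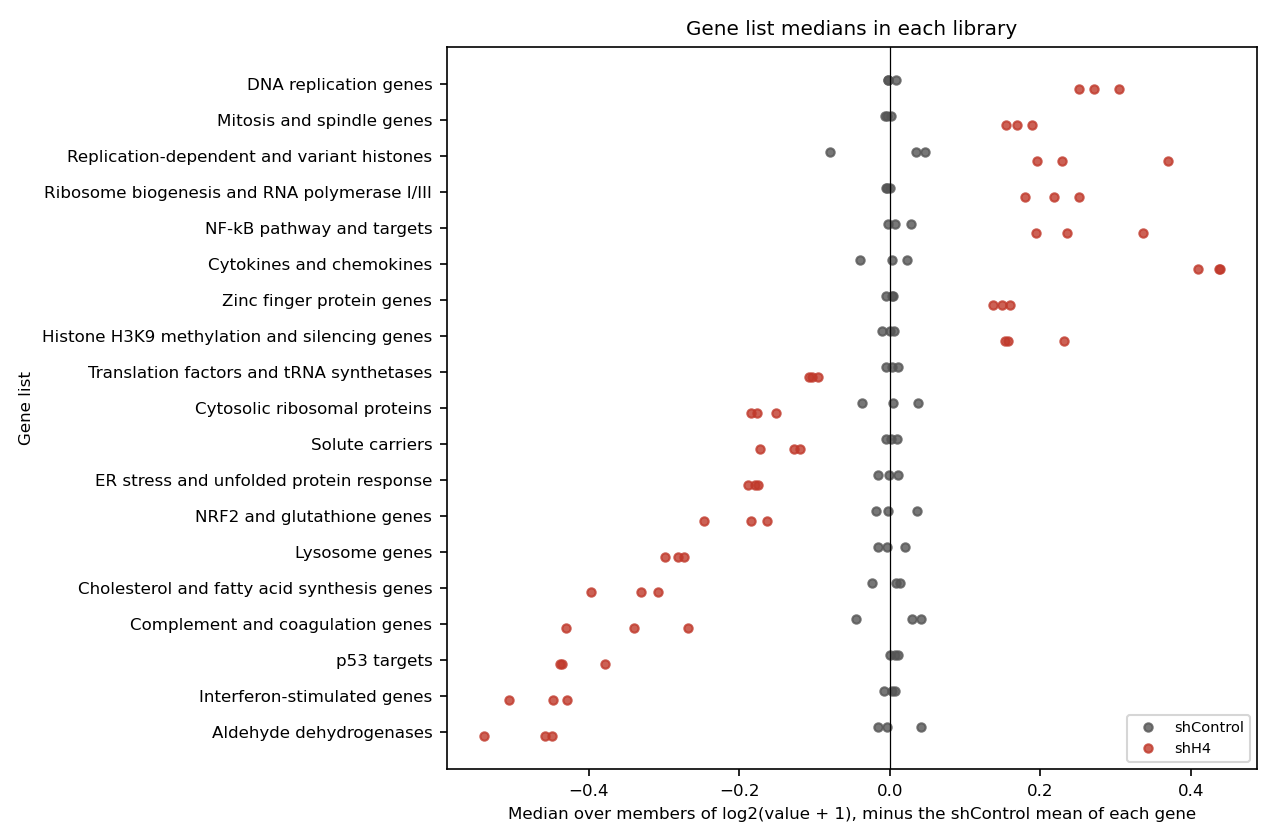
Median over the listed members of each of 19 gene lists and families in each library, as log2(value + 1) minus the mean of each gene in shControl, with shControl libraries in grey and shH4 libraries in red. The interferon-stimulated genes are at −0.51, −0.45 and −0.43 and the DNA replication genes at 0.30, 0.27 and 0.25 in the shH4 libraries.

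Surface receptors, growth factors and matrix genes changed in both directions. Of 35 growth factor and cytokine receptors, 19 were higher and 13 were lower. Notch1 went from 1062, 1152 and 1238 to 548, 674 and 625 (log2 fold change −0.90), and Erbb3, the partner receptor of ERBB2, from 88.1, 99.6 and 82.0 to 34.5, 44.0 and 43.0 (log2 fold change −1.13). Pdgfra rose by 0.74 and the Wnt receptor gene Fzd6 by 0.58. Of 16 growth factor and hormone genes, 9 were higher and 6 were lower, and besides Inhbb, Gas6, the ligand of the TAM receptor kinases, went from 325, 300 and 311 to 153, 158 and 140 (log2 fold change −1.05). Of 24 matrix genes and their proteases, 14 were lower and 9 were higher. Spp1, the secreted phosphoprotein osteopontin, went from 19674, 17871 and 18737 to 9902, 10123 and 10384 (log2 fold change −0.89, SE 0.047, limma adjusted p = 4.23e-10), so that every shH4 library was far below every shControl library. The stromelysin gene Mmp3 went from 2897, 2759 and 2795 to 4604, 4469 and 4442 (log2 fold change 0.68). The thrombospondin gene Thbs3 fell by 1.00.

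Epithelial and mesenchymal genes were compared as separate lists, and each held genes of both directions. Of 14 epithelial adhesion, junction and keratin genes, 8 were lower and 6 were higher, with a median of −0.25, and of 10 mesenchymal genes 7 were lower and 3 were higher, with a median of −0.23. The epithelial list ran from −1.51 to 1.55, and the members at its ends did not meet the naming conditions. Jup, plakoglobin of desmosomes and adherens junctions, fell by 0.42, and the adhesion gene Nectin2 by 0.53, while the integrin gene Itga6 rose by 0.42. Twist1, a factor that drives epithelial-mesenchymal transition, went from 420, 404 and 432 to 303, 296 and 259 (log2 fold change −0.55). Zeb2, another such factor, went from 712, 742 and 678 to 938, 875 and 882 (log2 fold change 0.34). The libraries of the groups were separate in both, which the rule required, and the directions were opposite. The other mesenchymal genes that rose were Itga5 (0.38) and Tpm1 (0.32). Among 19 genes of histone H3 lysine 9 methylation and silencing, 14 were higher and 5 were lower, Resf1 (−0.69) being the lowest, followed by Kdm4c (−0.27), Dnmt3a (−0.25), Daxx (−0.15) and Ehmt2 (−0.13). The Daxx call was lost without shControl replicate 2 or shH4 replicate 3 (limma adjusted p 0.103 and 0.093). Uhrf1, which guides maintenance DNA methylation and is also on the replication list, went from 4893, 5663 and 5387 to 7120, 7174 and 7348 (log2 fold change 0.44), and the chromatin remodeller gene Hells rose by 0.41. Of 98 zinc finger protein genes, many of which encode repressors, 59 were higher and 34 were lower (43 and 35 after scaling by the upper quartile), with Zfp704 (log2 fold change 1.27) and Zfp979 (−1.001) as the largest changes among those that met the naming conditions.

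The cell type label was checked against marker lists. Of 32 mammary epithelial markers, 8 were in the table, and Krt8 and Krt18, keratins of luminal cells, were present in every library. Krt8 went from 16015, 14763 and 15580 to 12653, 13589 and 12710 (log2 fold change −0.25), and Krt18 from 12980, 11822 and 12573 to 9733, 10274 and 9995 (log2 fold change −0.32). The epidermal growth factor family ligand gene Areg (−0.67), the casein gene Csn3 (−0.52) and Erbb3 were also lower, and Cd24a (0.72), Itga6 and Erbb2 (0.35) rose. Of 20 lymphocyte markers, 0 were in the table, and of 18 fibroblast markers the table held Pdgfra. Of 30 myeloid markers, 3 were in the table and all were lower: Cd68 (−1.50), the integrin gene Itgb2 (−0.40) and the endotoxin co-receptor gene Cd14 (−0.17). The Cd14 call was lost without shControl replicate 2 (limma adjusted p = 0.0525). The summed level of the 3 genes ran from 3948 to 4124 normalized counts in shControl and from 2765 to 2920 in shH4. Most of this sum was Itgb2, at 2998, 2874 and 2954 in shControl and at 2165, 2234 and 2276 in shH4. Of 20 endothelial markers, 4 were in the table. Beside Cdh5, Pecam1, a junctional molecule of endothelial cells, went from 6.15, 5.93 and 2.22 to 25.6, 27.5 and 24.4 (log2 fold change 2.31, limma adjusted p = 4.17e-05), a level too low for the naming rule, and it was chosen after its values were seen. The other 2 were lower. Egfl7 fell by 0.57, and Eng fell by 0.40 (limma adjusted p = 0.0307), a call that was lost without shControl replicate 1 or 3 or shH4 replicate 1 or 3 (limma adjusted p 0.0631 to 0.132). Eng was at 72.4, 56.9 and 64.2 in shControl and at 46.3, 58.2 and 42.1 in shH4, with overlapping groups. The summed level of the 4 genes ran from 989 to 1119 in shControl and from 831 to 911 in shH4. Cdh5, Pecam1 and Eng were far below these sums, which were mostly Egfl7 and do not describe the set. Markers outside the table have no value here, 0 of the listed markers was at 0 in a whole group, and the part of other cell types in the changes of Cdh5 and Cd68 was not tested. In bulk RNA, a change in the number of cells of a type and a change in RNA per cell cannot be told apart.

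The shH4 libraries were compared directly with the shH6 libraries, since both hairpins target Resf1. The shControl libraries entered this contrast through the shared estimate of spread and, as it appeared, through the selection of the listed genes. Between the hairpins, 438 of 5301 genes (8.26%) passed an adjusted p of 0.05 by limma. This count rested on which libraries were used and how they were weighted. With library weights it was 684. It was 378 in a fit of only these 6 libraries, 290 without shH4 replicate 1 and 287 without shH6 replicate 1. Of the 206 genes that changed by more than 2-fold in shH4, 45 (21.8%) were among the 438. Resf1 itself differed by −0.19 between shH4 and shH6 (log2, SE 0.043, limma adjusted p = 0.00984), with 1120, 1113 and 1130 in the shH6 libraries.

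Cdh5 had the largest difference between the hairpins among the genes that the rule named. It was at 19.1, 19.9 and 26.2 normalized counts in shH6, close to the shControl values, and the difference of shH4 from shH6 was 2.86 (SE 0.22, limma adjusted p = 6.31e-07). Pecam1, at a mean of 7.11 in shH6, was higher in shH4 by 1.76. Eya1 was at 62.7, 71.4 and 94.8 in shH6, and shH4 was higher by 1.03 (SE 0.15, limma adjusted p = 0.000348). Hist1h1a was at 1056, 1022 and 943 in shH6, between the other groups, and shH4 was higher by 0.80 (SE 0.054, limma adjusted p = 2.61e-07). Fscn1 was at 34.4, 28.3 and 31.2 in shH6, also between the other groups, and shH4 was lower by 1.45 (SE 0.21, limma adjusted p = 0.000368). The Fscn1 means of shH4 and shH6 were both under the 50 normalized counts that the naming rule asks of this contrast. The other genes that the rule named as higher in shH4 than in shH6 were Naip2, by 1.10, and Bmf, a pro-apoptotic member of the BCL2 family, by 1.00. Bmf was at 88.1, 81.8 and 80.9 in shControl, at 55.2, 55.0 and 85.1 in shH4 and at 29.1, 36.7 and 28.7 in shH6. Its shH4 libraries overlapped shControl. Those named as lower in shH4 than in shH6 were Aldh3a1, by −0.95, the ephrin receptor gene Ephb2, by −0.93, the interferon-inducible gene Ifi205, by −0.91, and Kcnt1, by −0.91. The call of Ifi205 was lost, with limma adjusted p-values of 0.0544 to 0.0955, when shH4 replicate 1, shH4 replicate 2, shH6 replicate 2 or shH6 replicate 3 was left out. Ephb2 was at 138, 154 and 133 in shControl, at 183, 163 and 184 in shH4 and at 324, 326 and 363 in shH6.

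**Figure D5:**
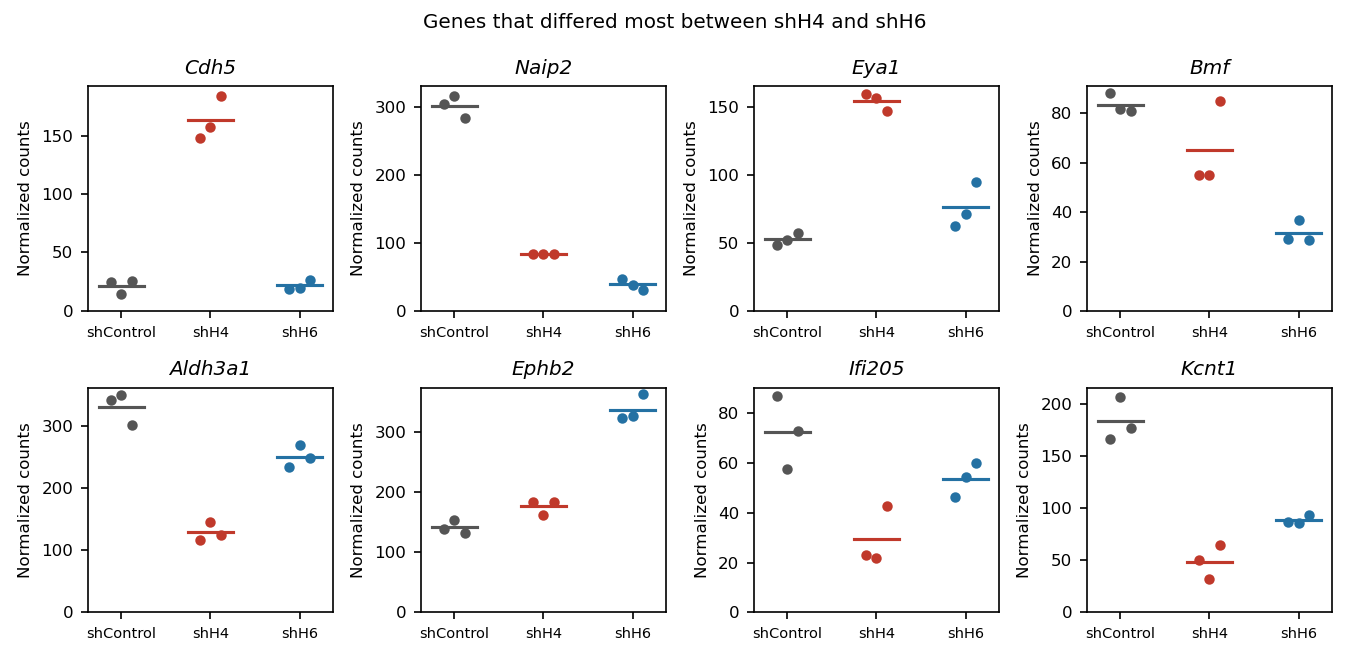
Normalized counts in each library of the 8 genes named for large differences between shH4 and shH6, among genes with a mean of at least 50 normalized counts in either group, with a point for each of 3 libraries and a bar at the group mean. Cdh5 is high in the shH4 libraries (148, 157 and 184) and low in both other groups, and Ephb2 is highest in the shH6 libraries.

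Gene lists were also compared between the hairpins, beside 8.26% of genes past the threshold over the whole table. The DNA replication list had a median difference of shH4 from shH6 of −0.05, with 7 of 55 members past the threshold, and the interferon list 0.04, with 5 of 27. The complement list had a median of 0.15, with 3 of 12. Among the 4 endothelial markers the median was 1.06, with 2 past the threshold. The medians of small families were 0.22 for 6 serpin genes, −0.20 for 4 keratin genes and −0.19 for 4 cytochrome P450 genes. Of the 8 mammary epithelial markers 5 were past the threshold, with a median of −0.02. Pros1 was higher in shH4 than in shH6 by 0.46.

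Features of the genes themselves moved with the change. In 4 equal groups by transcript length, whose medians were 1109, 2378, 3713 and 6077 bases, the median log2 fold change was −0.17, −0.11, 0.14 and 0.16. In 4 equal groups by GC content, whose medians were 42.8, 48.1, 52.7 and 57.4%, it was 0.14, 0.13, −0.12 and −0.16. The groups of shorter and of GC-richer transcripts had the negative medians. Of 342 processed pseudogenes, 200 were lower and 121 were higher, with a median of −0.16, and of 15 small nucleolar RNA genes 13 were lower and 0 were higher, with a median of −0.42. The ribosomal protein genes have short transcripts, and the part of length or of GC content in their fall was not tested. Over the nuclear chromosomes the medians ran from −0.13 (chromosome 17) to 0.17 (chromosome 18). All 4 mitochondrially encoded genes in the table were lower, with a median of −0.37. Among them mt-Co1, a subunit of cytochrome c oxidase, went from 230896, 225515 and 219419 to 170630, 162940 and 166340 normalized counts (log2 fold change −0.43), while mt-Co3 fell by 0.40, mt-Co2 by 0.35 and mt-Nd5 by 0.12.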

How the data were processed

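Libraries were made from total RNA of 6DT1 cells with a stranded kit and sequenced. Per the labels and the submitters' processing notes, reads were aligned with STAR 2.7.8a in Partek to mm39 and normalized by median ratio with DESeq2. The counting step, its strand setting and its annotation are not given in the sources used here. The deposited values are a signal per gene, estimated reads that the authors divided by a size factor for each library, and not raw counts, so no count-based test was run. Library depth before this scaling was not used here.

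Tests used limma 3.58.1 (R 4.3.3) on log2(value + 1), with a mean per group over all 9 libraries, empirical Bayes moderation with a trend, and Benjamini-Hochberg adjustment over 5301 genes at a threshold of 0.05. Such fold changes understate the change of genes with low values. The fit was tested on simulated data. No filter on low values was applied. Symbols, lengths and UTRs came from GENCODE M21 (GRCm38), which held 5258 of the identifiers (99.19%). Its coordinates and those of the RefSeq promoters (GRCm38.p6) were not mixed with mm39.

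Named were Resf1 and Setdb1, the 15 genes that rose and the 15 that fell most under the conditions stated in the results, up to 4 members of each list with at least 5 measured members under the same conditions plus the largest opposite member, the 4 genes highest and 4 lowest in shH4 relative to shH6, and the gene with the highest values. The members, 30 gene lists and 13 symbol families were chosen with earlier results of these data known. The table also appeared to be a selection of genes that differ from shControl, so list counts are descriptions and carry no test. Genes named outside this rule, to complete counts of 5 or fewer, as markers or with a seed site, and the motifs were chosen after their values were seen. Some list members are not reported here. Alternatives were other pseudocounts, a filter, a fit of the compared libraries only, other scalings, library weights, the replicate block and leaving out each library.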

Additional observations from a re-analysis of the deposited data

Results flagged for a closer look

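The number of genes that differed between shH4 and shH6 in the direct test was 438 by limma at an adjusted p-value under 0.05. Among genes with a mean of at least 50 normalized counts in either of these groups, the 4 highest and the 4 lowest in shH4 had these log2 values of shH4 minus shH6. Fscn1 (−1.45) and Inhbb (−1.02) were below that level in both. The Inhbb call was lost with library weights and without shH4 replicate 1, shH4 replicate 2 or shH6 replicate 2 (limma adjusted p 0.0564 to 0.124). Cdh5 was at 2.86, and it was near shControl in shH6. Naip2 was at 1.10, with a fall from shControl in both hairpin groups that was larger in shH6. Eya1 was at 1.03 and Bmf at 1.00. Aldh3a1 was at −0.95, with the larger fall in shH4. Ephb2 was at −0.93, with the larger rise in shH6. Kcnt1 was at −0.91. Ifi205 was at −0.91, and its limma adjusted p of 0.0201 became 0.0544 to 0.0955 when shH4 replicate 1, shH4 replicate 2, shH6 replicate 2 or shH6 replicate 3 was left out. The cause of these differences was not tested.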

How the results depend on the processing

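The number of genes that differed between shH4 and shControl ran from 4616 (upper quartile scaling) to 5122 (only the libraries compared), and from 4660 to 4797 when a library was left out. The number that differed between shH4 and shH6 was 438. With library weights it was 684, and it ran from 287 to 397 when a library of these groups was left out. The fall of Resf1 ran from −0.75 (upper quartile scaling) to −0.66 (column total scaling). The upper quartile scaling moved the median of all genes by −0.06 and gave 2041 higher and 2575 lower, and with it 43 zinc finger genes were higher and 35 lower. No list median changed sign under the alternatives run, but 59 of 490 rerun list medians were flagged as moved. Under upper quartile scaling these included the DNA replication, mitosis, ribosome biogenesis, ribosomal protein and zinc finger lists. With the replicate block, 5054 genes differed between shH4 and shControl and 405 between shH4 and shH6. Nothing in the labels says that a replicate number marks a shared batch. The deviations of same-numbered shControl and shH4 libraries had correlations of −0.071, −0.069 and 0.032. With 3 libraries in each group, these values cannot decide whether the numbers pair the samples. Of 2946 values of genes rerun under alternatives, 45 lost the threshold and 0 reversed. Those lost were under upper quartile scaling for Setdb1, Irf1, Calr, Rpl10 and Rpl12, and under other settings for Aldh1l2, Bmf, Eng, Pcdh12, Cyp39a1, Daxx, Cd14, Irf1, Rpl12 and mt-Nd5 against shControl and for Ifi205 and Inhbb against shH6. Whole-library depth and unlisted genes were not analysed here.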

Other observations

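Further gene families were described. The solute carrier genes in the table had 42 of 78 lower and 31 higher. Slc16a3, the lactate exporter MCT4, went from 1262, 1203 and 1248 normalized counts in shControl to 735, 714 and 682 in shH4 (log2 fold change −0.80), and the zinc exporter gene Slc30a1 from 374, 390 and 370 to 247, 259 and 213 (log2 fold change −0.66). Slc39a13, a zinc transporter, went from 1006, 968 and 1012 to 1466, 1491 and 1266 (log2 fold change 0.50). Of 6 integrin genes, 4 were higher and 2 were lower. Itga2, the alpha subunit of a collagen receptor, went from 320, 312 and 311 to 565, 590 and 581 (log2 fold change 0.88), with separate groups, which the rule required. Of 12 axon guidance and ephrin genes, 8 were higher and 3 were lower, and those that were lower were Plxnb3 (−1.86), Slit2 (−0.64), a ligand of Robo receptors, and Sema4d (−0.43). The integrin genes that were lower were Itga2b (−0.88) and Itgb2 (−0.40). All 4 cytochrome P450 genes in the table were lower: Cyp39a1 (−0.69), Cyp4f13 (−0.49), Cyp4v3 (−0.46) and Cyp51 (−0.37), the sterol demethylase. The Cyp39a1 call was lost without shControl replicate 3 or shH4 replicate 3 (limma adjusted p 0.0696 and 0.0544).

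The identifier with the highest values in the table, without correction for length, was ENSMUSG00000118866, which had no symbol in the annotation. It was at 1171300, 1323280 and 1254630 normalized counts in shControl and at 1124800, 1183960 and 1114130 in shH4, with overlapping groups (log2 fold change −0.13, limma adjusted p = 0.115).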
